A study of Schizosaccharomyces pombe with 24 samples.

Results

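Among the 5113 protein-coding genes that the authors' annotation of the fission yeast Schizosaccharomyces pombe places on chromosomes I, II and III, 429 (8.39%) had a 3' end of 1000 bases or more. The 3' end was measured as the distance from the last coding base, in the direction of transcription, to the end of the gene. It therefore covers the annotated 3' untranslated region (3' UTR) and any intron in it. The other 4684 protein-coding genes, of which 388 had no annotated 3' end at all, served as the comparison. The distances are those of the annotation and not of RNA measured in these strains, so a long 3' end here means a long annotated one.

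The annotation belongs to a study of histone H3 dimethylated or trimethylated at lysine 9, the marks of fission yeast heterochromatin. It profiled 24 chromatin immunoprecipitation sequencing (ChIP-seq) libraries from cells grown to log phase in YEA at 32 °C and fixed for 15 min in 1% formaldehyde. All strains carried a reporter of 10 tet operators beside ade6+, written ura4D::10xteto-ade6+ at the ectopic site (14 libraries) or cenHD::10xteto-ade6+ at the endogenous site (10 libraries). Both antibodies, 9me2 and 9me3, were used once per genotype at each site. The genotypes WT, swi6D, swi6Dmst2D, swi6Dset1D and swi6Dmst2Dset1D occurred at both sites, and clr4D and set1Dmst2D at the ectopic site. The authors' annotations hold no value per library, so the read depth is unknown, nothing was compared between genotypes or antibodies, and each value below describes 1 annotation and has no replicate error. Intervals are 95% Wilson intervals that cover counting over genes only.

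The 3' UTR of an mRNA lies between the stop codon and the poly(A) tail, and its length is set where cleavage and polyadenylation factors cut the transcript. Hexamers such as AATAAA are recognised near that cut, and RNA polymerase II goes on beyond it until it is released from the DNA. Where the next gene lies on the opposite strand and points back, the genes are convergent, and a long 3' end of one of them is antisense to the other. Convergent transcripts that overlap can pair as double-stranded RNA, the substrate of Dicer, which in fission yeast feeds the RNA interference pathway of heterochromatin.

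Some convergent stop codons faced each other at short distance. In 9 convergent pairs with at least 1 long 3' end, 0 to 20 bases lay between the facing stop codons. Pairs without a long 3' end were not counted, so no share over all convergent pairs stands beside this. A long 3' end that begins there enters the coding bases of the partner almost at once, and 5 of the 9 pairs are shown as examples. Each is read from RefSeq's ASM294v3 in the direction of the first gene named, and the capitals mark its stop codon and, reading backwards, that of the partner.
dcr1 and spn6, III:1506143-1506168, minus strand: TGAgacttgaaatatacagtattTCA
rdh54 and atf31, I:706826-706846, plus strand: TAGatctatttcggacttTTA
SPCC965.10 and agp3, III:2304124-2304139, plus strand: TAAaataacaggaTTA
hem4 and spk1, I:2999841-2999852, plus strand: TGAagctttTTA
myh1 and rmi1, I:3336517-3336522, plus strand: TAATCA

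Between dcr1, which encodes Dicer, and spn6, a septin gene, 20 bases separated the stop codons. That of dcr1 began a 3' end of 1217 bases, which covered 1135 of the 1143 coding bases of spn6. The genes myh1 and rmi1 had no base between their stop codons, and both had long 3' ends, of 1195 and 1578 bases. The pair rdh54, a DNA translocase gene, and atf31 were 15 bases apart with 3' ends of 1162 and 1802 bases, so each ran into the other: rdh54 covered all 630 coding bases of atf31, and atf31 61.0% of those of rdh54.

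At their other end, 35 of the 429 members had an AATAAA hexamer within the last 30 annotated bases. Such a hexamer was no trait of the members: in the last 40 bases it was in 11.2% of them and 14.9% of the others. The last 30 bases of 4 members are shown because their proteins act in RNA processing, RNA interference or DNA repair, with the hexamer in capitals, also from ASM294v3.
pcf11, I:2255677-2255706, minus strand: ccaaatgctAATAAAggttttctacgtagc
dhp1, I:3356144-3356173, minus strand: tcgcaaaagaagaaAATAAAtgttataata
hrr1, III:2034176-2034205, plus strand: gctttaataAATAAAaatattatcataaac
mre11, I:439951-439980, plus strand: gacgtgcgAATAAAccgtagaatattggat

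In pcf11 and hrr1 the hexamer ended 15 bases before the annotated gene end, in mre11 16 bases and in dhp1 10 bases. Pcf11 is a cleavage factor subunit that binds the tail of RNA polymerase II, and Dhp1 is the exoribonuclease that degrades the downstream RNA fragment at termination. Hrr1 is a helicase of the RNA-directed RNA polymerase complex, and Mre11 is a nuclease of double-strand break repair.

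The members' 3' ends ranged from 1003 to 5911 bases, with a median of 1536 and quartiles of 1211 and 2113. In the other protein-coding genes the median was 219 bases with quartiles of 118 and 375. By class, 209 members had 1000 to 1499 bases, 94 had 1500 to 1999, 90 had 2000 to 2999 and 36 had 3000 or more. No gap in length set the members apart, since SPBC1773.16c at 999 bases and aim22 and SPCC1259.16 at 998 fell just outside the threshold. Just inside it lay SPCC70.04c at 1003 bases, mcm3 at 1004, which encodes a subunit of the replicative helicase, and SPAC8E11.08c at 1005. Together the members' 3' ends amounted to 765825 bases, which was 37.9% of all annotated 3' end bases.

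Long 3' ends were spread over the genome at similar shares: 192 of 2336 genes on chromosome I (8.22%), 159 of 1863 on II (8.53%) and 78 of 914 on III (8.53%). The plus strand held 224 of them. Within 100 kb of a chromosome end lay 10 members (2.33%, interval 1.27 to 4.24%), beside 179 of the others (3.82%, 3.31 to 4.41%). The coding length of the members had a median of 1002 bases, against 1146 in the other genes, and their 5' untranslated distance a median of 96 bases against 79.

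Introns were annotated in the 3' ends of 34 members (7.93%, interval 5.73 to 10.9%) and of 19 other genes (0.406%, 0.260 to 0.633%). A longer 3' end offers more room for an intron, and the share per base was not compared. The longest of the members' introns were in pop5 (203 bases), which encodes a subunit of RNase P, in SPCC11E10.09c (149), in the exocyst gene sec8 (145), in sip1 (92) and in the ubiquitin protease gene sst2 (80). Leaving introns out moved the median 3' end from 1536 to 1513 bases, and all 429 members stayed at or above 1000 bases.

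Most members faced a convergent neighbour. The next protein-coding gene was convergent for 371 of the 429 members (86.5%, interval 82.9 to 89.4%) and for 2432 of the 4684 others (51.9%, 50.5 to 53.4%). For the remaining 58 members it lay on the same strand, an arrangement called tandem. Read the other way, 371 of 2803 genes with a convergent next gene had a long 3' end (13.2%), against 58 of 2305 genes with a tandem one (2.52%). The convergent share rose with length: it was 76.6% at 1000 to 1499 bases, 94.7% at 1500 to 1999, 95.6% at 2000 to 2999 and 36 of 36 at 3000 or more (lower bound 90.4%). The longest tandem member, ppe1, which encodes a protein phosphatase catalytic subunit, had 2534 bases.

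**Figure D1:**
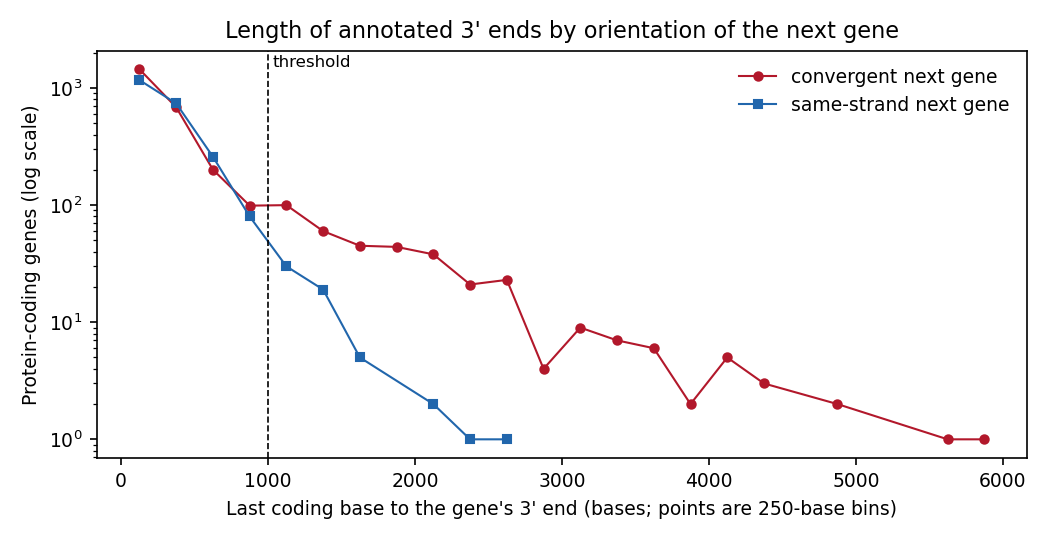
Number of protein-coding genes (log scale) by length of the annotated 3' end in bins of 250 bases, for genes whose next protein-coding gene is convergent (red circles) or on the same strand (blue squares). The dashed line is the threshold of 1000 bases; bins without genes are not drawn, and the same-strand series ends in the bin that holds 2534 bases while the convergent one runs on to 5911.

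The plot of gene number by length shows both orientations falling together up to the bin below the threshold and parting beyond it. Among convergent genes the share with a long 3' end also varied with spacing. Where the coding regions were under 100 bases apart, 77 of 211 genes had a long 3' end (36.5%, interval 30.3 to 43.2%). This share was 22.8% (127 of 558) at 100 to 249 bases, 9.44% (98 of 1038) at 250 to 499 bases and 5.28% (38 of 720) at 500 to 999 bases. At 1000 bases or more it was 11.2% (31 of 276, 8.03 to 15.5%), a class in which a 3' end of 1000 bases can fit without meeting the partner's coding bases. The median spacing was 230 bases for convergent members and 405 for convergent others. Tandem members showed the opposite order, with a median of 1694 bases to the next coding region against 729 in tandem others. No tandem member reached the next coding region, so its spacing was at least as long as its 3' end. The lowest was 1109 bases, and the threshold of 1000 bases therefore bears on this order.

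**Figure D2:**
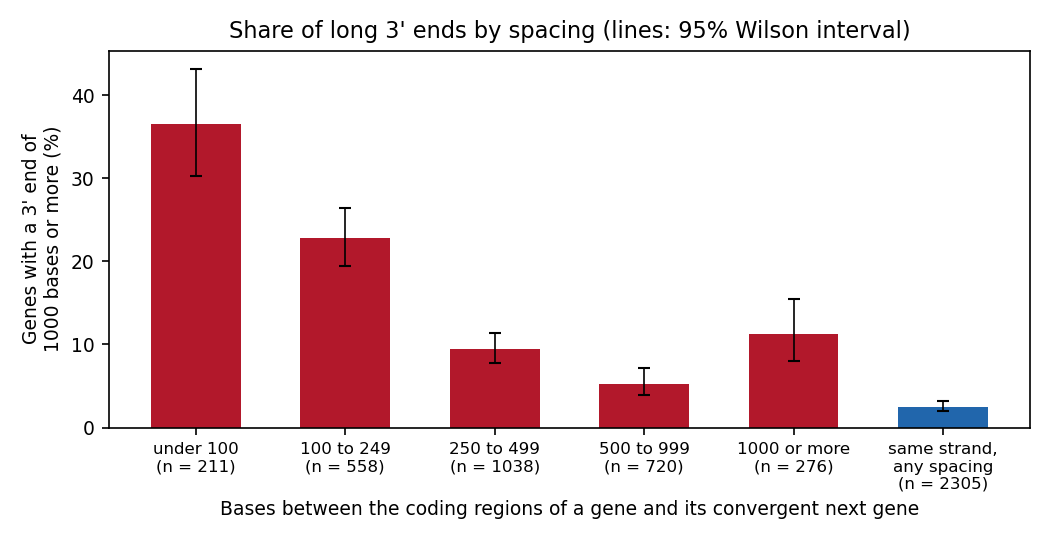
Share of genes with a 3' end of 1000 bases or more, by the number of bases between the coding regions of a gene and its convergent next gene (red), and for genes with a same-strand next gene at any spacing (blue). Bars are shares in percent and lines are 95% Wilson intervals; the share is 36.5% below 100 bases, 5.28% at 500 to 999 and 2.52% for same-strand next genes.

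Most members also ran into their neighbours. In 379 members (88.3%, interval 85.0 to 91.0%) the 3' end entered a downstream protein-coding gene, against 1589 of the others (33.9%, 32.6 to 35.3%). It reached coding bases in 349 members (81.4%) and 333 others (7.11%), and it spanned the whole coding sequence of a downstream gene in 236 members (55.0%) and 46 others (0.982%). A whole downstream gene with its untranslated ends lay inside it in 101 members (23.5%) and 11 others (0.235%). Coding bases of 2 or more genes were covered by 22 members (5.13%) and by 0 of 4684 others (upper bound 0.0819%). A longer stretch meets more genes by construction, so these shares describe how far the long 3' ends went.

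**Figure D3:**
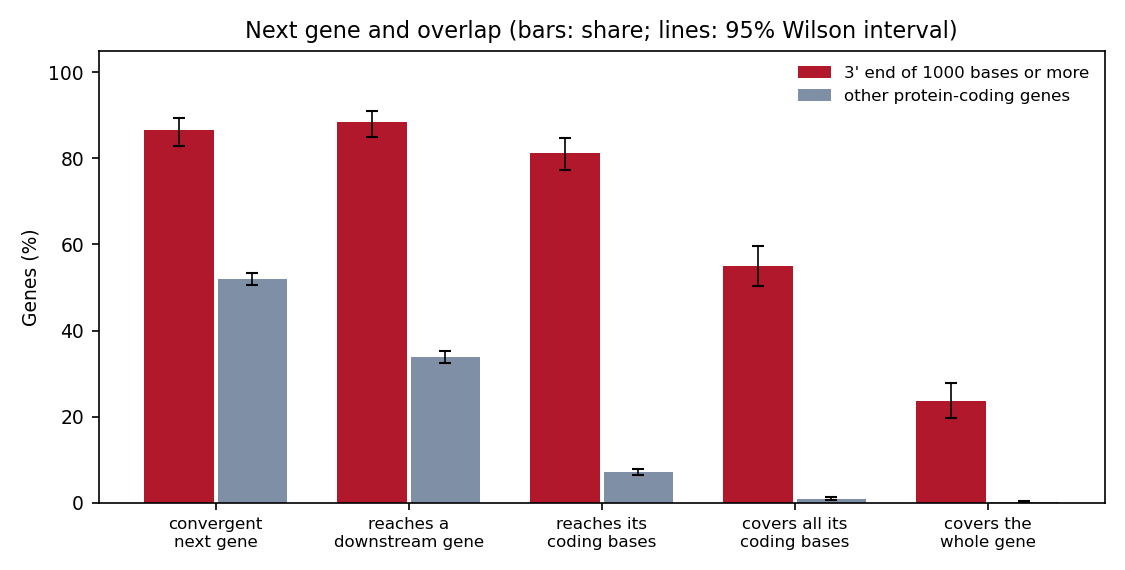
Share of genes, in percent, whose next protein-coding gene is convergent and whose 3' end reaches a downstream gene, reaches its coding bases, covers all its coding bases, or covers the whole gene, for the 429 members (red) and the 4684 other protein-coding genes (grey). Lines are 95% Wilson intervals; the members' bars run from 88.3% for reaching a gene to 23.5% for covering one whole.

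Coding bases were reached by 349 of the 371 convergent members and by 0 of the 58 tandem members (upper bound 6.21%), beside 324 of 2432 convergent others and 9 of 2247 tandem others. Of the 371 convergent neighbours, 236 had their coding bases covered whole, 94 in their larger part, 19 in their smaller part and 22 not at all. In 241 convergent members the 3' end went on past the partner's start of translation, by a median of 254 bases, and in 190 of them it stopped within 500 bases of that start. Of all members, 93 (21.7%) ended in the 5' untranslated end of a downstream gene, 91 (21.2%) in coding bases, 38 (8.86%) in a 3' untranslated end, 29 (6.76%) in an intron and 178 (41.5%) outside downstream protein-coding genes. Among the others with an annotated 3' end, the commonest end inside a gene was instead the partner's 3' untranslated end, at 1146 of 4296 (26.7%), and 133 (3.10%) ended in a 5' untranslated end.

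Among the 58 tandem members 38 stopped before the next gene on their strand. A downstream gene on either strand was reached by 21 of them (36.2%, interval 25.1 to 49.1%), beside 157 of 2247 tandem others (6.99%, upper bound 8.12%). The 20 that reached the next gene overlapped it by a median of 31 bases and at most by 153 bases, in pac3, a proteasome assembly chaperone gene whose next gene is erg6. Besides ppe1, tandem members included msi2 (2450 bases), a cleavage factor subunit gene, mpr1 (2129), a phosphotransfer protein of the stress pathway, and mre11 (1611), whose end is printed above. Tandem 3' ends had a median of 1240 bases and convergent ones of 1639.

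The longest 3' end belonged to prp17, a splicing factor gene on chromosome II (2658133 to 2665934 of the authors' annotation, plus strand). Its 5911 bases covered all 5799 coding bases of fab1, which encodes a lipid kinase, and fab1 itself had a 3' end of 1965 bases that crossed back over prp17. SPCC320.06, an uncharacterized gene, followed with 5636 bases that held the whole mde7 gene. In alp41, a tubulin folding gene, 4972 bases covered 99.2% of the coding bases of mug62, the rest being the 36 bases by which their coding regions overlap. In str2, a siderophore transporter gene, 4877 bases held the whole of rpl6, a ribosomal protein gene, and jmj4. That of wdr70 (4497 bases) held tit1 and lys2, and that of prm1 (4473 bases), a conjugation gene, all 4260 coding bases of lys1. Both lys2 and lys1 encode enzymes of lysine synthesis.

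In swi1, a replication fork protection gene, 4233 bases covered 58.0% of the 7161 coding bases of rad3, the ATR checkpoint kinase gene, whose own 3' end of 2104 bases ran back over swi1. In nop2, an RNA methyltransferase gene, 3591 bases held the whole of spt16, which encodes a histone chaperone of the FACT complex. SPCC1672.01, a histidinol phosphatase gene with 3990 bases, held the whole of sap1, whose product binds DNA at replication barriers and mating-type switching sites. The gene sid1, for a septation kinase, had 4006 bases that held inp53, and prp3, a splicing factor gene, 3660 bases that held uso1, which encodes a tether of transport vesicles to the Golgi. Still others were bet4 (4338 bases), esf2 (4119, over 49.2% of lvs1), msw1 (4074, over 92.8% of peg1), cog2 (4005) and uvi31 (3910). They were followed by dhd1 (3616), SPCC11E10.09c (3571), dpm1 (3538) and SPBP8B7.32 (3512). SPBP8B7.32 stood apart among these, since its coding region lay 3498 bases from that of pop7 and it reached only 14 of the 309 coding bases there.

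The whole genes held inside a 3' end were up to 3848 bases long, for inp53 in sid1. After uso1 (3381 bases, in prp3) and spt16 (3343 bases, in nop2) came naa25 in shy1 (3059 bases), dbp10 in atp25 (2785) and dpp1 in atp1 (2716). Whole genes of 2656, 2653, 2393 and 2353 bases lay in spo12 (ucp6), omh1 (SPBC19C7.11), clr4 (meu6) and cyk3 (aip1).

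In 40 convergent pairs both genes were members, so that 80 members (18.6%, interval 15.2 to 22.6%) were paired with each other. Among the other protein-coding genes, 291 of 4684 (6.21%, 5.56 to 6.94%) had a long 3' end as convergent neighbour. These shares also reflect orientation, since a convergent next gene was commoner in the members (86.5% against 51.9%). Over genes with a convergent next gene alone, the counts were 80 of 371 members and 291 of 2432 others. In vma16, a vacuolar proton pump gene, and ppk11, a kinase gene, the 3' ends shared 1024 bases in the 1422 between their coding regions. Most pairs lay close together: prp17 and fab1 were 60 bases apart, rad3 and swi1 77, sec3 and mst2 52 and cdc6, the catalytic subunit gene of DNA polymerase delta, and hen1 35. In ptc2 and meu10, by contrast, the coding regions were 3610 bases apart and the 3' ends of 1768 and 1564 bases shared none. The coding regions themselves overlapped in 9 of the 371 convergent members and in 28 of the 2432 convergent others, by 104 bases in ber1 and pol5 at most among the members.

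**Figure D4:**
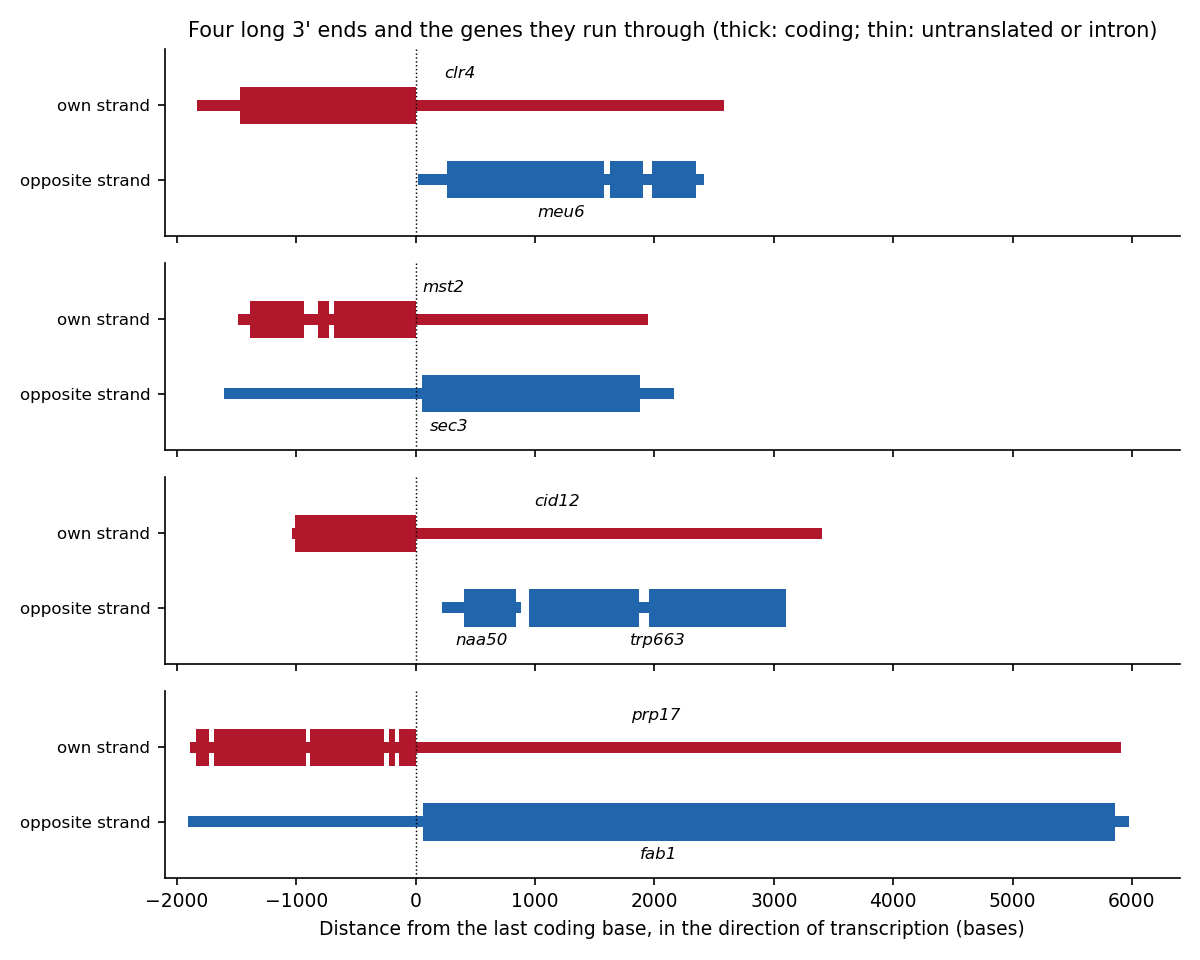
Maps of 4 members, clr4, mst2, cid12 and prp17 (red, own strand), with the opposite-strand genes they cross (blue), drawn by distance in bases from the member's last coding base, which is at 0. Thick blocks are coding bases and thin ones untranslated ends or introns; each red 3' end runs past the whole coding part of the blue genes, and sec3 and fab1 run back past 0 over the coding bases of mst2 and prp17.

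Besides ura4, which the ectopic reporter replaced, 4 genes were deleted in the study's strains. Of these, clr4 and mst2 were members and swi6 and set1 were not. Over all protein-coding genes 8.39% were members, or 13.2% with a convergent next gene and 2.52% with a tandem one. With only 4 deleted genes, no share of theirs is set against these. Clr4 is the H3K9 methyltransferase, Mst2 a histone acetyltransferase, Swi6 an HP1 protein and Set1 the H3K4 methyltransferase. In clr4 the 3' end was 2579 bases long and held all 1956 coding bases, and the whole gene, of meu6, a gene named for its upregulation in meiosis. In mst2 it was 1948 bases long and covered all 1827 coding bases of sec3, an exocyst subunit gene. In return, the 3' end of sec3, at 1661 bases, covered all 1224 coding bases of mst2, so that the coding bases of mst2 lay under the 3' end of sec3. Which bases were removed in mst2D and clr4D is not given in the sources used here. For swi6 and set1 the 3' ends were 609 and 472 bases long, and the next gene was tandem in both.

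Of the 6 listed genes of the Clr4 complex, clr4 alone was a member (16.7%, beside 8.39% of all protein-coding genes). The 3' ends of rik1, cul4, stc1 and raf2 were 616, 487, 193 and 111 bases long. However, rik1 was itself crossed from its convergent neighbour SPCC11E10.09c, whose 3' end covered 3087 of its 3123 coding bases. None of the 3 listed HP1 and chromodomain genes (70 to 609 bases) and none of the 5 listed genes of the histone deacetylase complex SHREC (70 to 253 bases) was a member.

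In the RNA interference list 3 of 10 genes were members: cid12, hrr1 and dcr1. This was 30% of the list, in which 8 genes had a convergent next gene, beside 8.39% of all protein-coding genes and 13.2% of convergent ones. The list median was 167.5 bases, against 243 over all protein-coding genes. Cid12, a poly(A) polymerase of the same complex as Hrr1, had 3401 bases that held the whole genes naa50 and trp663. In hrr1 1420 bases covered all 825 coding bases of dms1. The argonaute gene ago1 had 58 bases, the polymerase gene rdp1 161 and tas3, the next longest after the 3 members, 473.

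Of 17 listed genes of anti-silencing and of the Mst2 and Set1 complexes, mst2 and leo1 were members (11.8%, beside 8.39% of all protein-coding genes). Leo1, a subunit of the Paf1 elongation complex that limits heterochromatin spreading, had 1085 bases that covered 813 of the 822 coding bases of SPBC13E7.07. SPBC13E7.07, an uncharacterized gene, had 2023 bases that covered all 1290 coding bases of leo1. The anti-silencing gene epe1 had 651 bases and paf1 118.

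Of 17 listed genes of 3' end processing and termination, 3 were members (17.6%, beside 8.39% of all protein-coding genes). They were dhp1 (1773 bases, over the whole of SPAC26A3.11), pcf11 (1180 bases, over the whole of adk1, the adenylate kinase gene) and ppn1 (1066 bases, over 31.3% of the coding bases of sly1). The rest of that list ran from 0 bases in clp1, din1 and rhn1 to 564 in cft1, the large subunit gene of the cleavage and polyadenylation factor.

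The list of 92 genes named mug, for meiotically upregulated, had 11 members (12.0%), beside 8.39% over all protein-coding genes. The longest were mug115 with 2724 bases, mug163 with 2667 bases, which held the whole of fzr3, and mug162 with 1922 bases. In 2 of them the neighbour crossed was also a mug gene: mug177 (1780 bases) covered all 834 coding bases of mug58, and mug57 (1359 bases) covered 97.4% of those of mug97. The others were mug114 (1536 bases), mug124 (1530), mug24 (1487), mug89 (1386), mug153 (1270) and mug150 (1129). None of 8 listed meiotic mRNAs that Mmi1 removes and none of 9 listed genes of the elimination machinery was a member, their longest being mcp7 at 701 bases and mmi1 at 741.

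Among 141 ribosomal protein genes 1 was a member (0.709%, beside 8.39% of all protein-coding genes). This was rpl1603, whose 2033 bases covered 86.1% of the coding bases of apl1, an adaptor gene. Their median 3' end was 119 bases. Coding bases of 11 of the 141 (7.80%) lay under a long 3' end of another gene, beside 372 of 5113 genes in all (7.28%). In the mug list it was 13 of 92 (14.1%).

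Cell cycle control gave 1 member of 20 (5%, beside 8.39% of all protein-coding genes). This was the cyclin gene cig2, with 1847 bases over 28.6% of the coding bases of the calcium pump gene pmc1. The gene wee1, for the mitotic inhibitor kinase, fell just short at 968 bases. No member was found among 20 genes of nutrient signalling (57 to 894 bases), 9 core histone genes (250 to 813 bases) or 6 phosphate response genes (0 to 473 bases). At a share of 8.39% over all protein-coding genes, lists this short can lack members.

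Antisense RNA genes, annotated non-coding genes on the opposite strand, were taken from the 7195 non-coding RNA genes of the annotation. They overlapped the 3' end of 117 members (27.3%, interval 23.3 to 31.7%) and of 1776 others (37.9%, 36.5 to 39.3%). This order depended on the settings: with a threshold of 500 bases it turned, at 40.2% of long 3' ends against 36.2%, and with an overlap of at least 100 bases the shares were 23.1% and 24.5%. In the first 1000 bases after the last coding base, a window of the same length for every gene, 103 members (24.0%, 20.2 to 28.3%) and 2509 others (53.6%, 52.1 to 55.0%) had one. Per 1000 bases of 3' end, 0.192 antisense RNA genes overlapped in the members and 1.51 in the others. Any overlap counted, however small, so shorter 3' ends have a higher rate by construction. Of the bases, 8.31% lay over an antisense RNA gene in the members and 27.2% in the others. Antisense protein-coding transcription is not part of these counts.

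Orientation separated these shares more than membership did. With a convergent next gene, 68 of 371 members (18.3%, interval 14.7 to 22.6%) and 22.0% of the others (20.4 to 23.7%) had an antisense RNA gene over the 3' end, and the intervals overlap. With a tandem next gene it was 49 of 58 members (84.5%, 73.1 to 91.6%) and 55.1% of the others (53.1 to 57.2%). In the window of 1000 bases the tandem shares were 77.6% and 83.9%, with overlapping intervals, and the convergent shares 15.6% (12.3 to 19.7%) and 25.6% (23.9 to 27.3%).

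**Figure D5:**
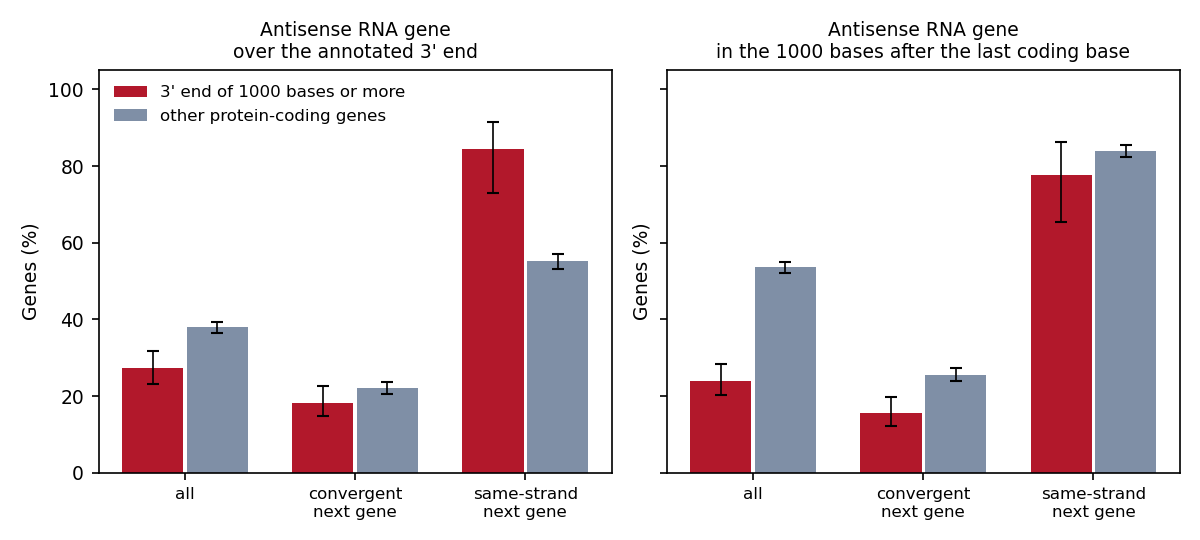
Share of genes, in percent, with an annotated antisense RNA gene over the 3' end (left) or in the 1000 bases after the last coding base (right), for members (red) and other protein-coding genes (grey), over all genes and by orientation of the next gene. Lines are 95% Wilson intervals; for same-strand next genes the members lie above the others on the left, at 84.5% against 55.1%, and slightly below them on the right, at 77.6% against 83.9%.

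The most antisense RNA genes over 1 long 3' end were 3, in mug24, an RNA-binding protein gene, and in SPAPB1A10.13, both tandem. SPCC320.06, SPBP8B7.32 and the mitophagy receptor gene atg43 had 2 each. Over the long 3' ends of clr4, mst2, cid12, dcr1, hrr1, leo1, dhp1, pcf11 and ppn1, all convergent, none was annotated. Of all 371 convergent members only 18.3% had at least 1. Listed members that had at least 1 were cig2, mug24, mug89, mug114, mug124, mug153, mug163 and mug177. The remaining listed members, among them rpl1603, mug115 and mug162, had none. The 147 antisense RNA genes over long 3' ends had a median length of 917 bases and overlapped them by a median of 328. The authors' second annotation held 43 of these 147, and the antisense shares were not recomputed with it.

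RNA genes on the same strand lay in the 3' ends of 17 members (3.96%, interval 2.49 to 6.25%) and 60 others (1.28%, 0.997 to 1.65%). Wholly inside the 3' end lay such an RNA gene in 0.932% of the members and 0.0213% of the others, and here too a longer stretch meets more genes. The members' 3' ends met 18 RNA genes, and the authors' second annotation described 7 of them as a possible alternative UTR. Those 7 overlapped the 3' end by 11 to 64 bases, and 6 antisense RNA genes over long 3' ends carried the same description. The 18 also included SPNCRNA.102 and SPNCRNA.62 in msi2, SPNCRNA.133 in the eisosome gene fhn1 and SPNCRNA.586 in ptc2. That annotation described these as predicted non-coding RNAs, SPNCRNA.62 as a poly(A)-bearing one, and none of them as a possible alternative UTR. Whether such an RNA and the mRNA are 1 transcript cannot be read from an annotation.

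In base composition the long 3' ends had a GC content of 35.9%, and the 3' ends of the 4204 other genes with a matched sequence 30.01%. Where they lay over coding bases of a downstream gene, it was 38.9% in the members and 37.8% in the others. Outside such bases it was 31.7% and 29.5%. Of the members' 3' end bases 58.6% lay over coding bases of downstream genes, and of the others' 6.10%.

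The hexamer AATAAA was present in the last 40 bases of 48 members (11.2%, interval 8.54 to 14.5%) and 628 of 4204 others (14.9%, 13.9 to 16.0%). With ATTAAA counted as well, the shares were 16.6% (13.3 to 20.4%) and 21.6% (20.4 to 22.9%). In the 300 bases after the last coding base AATAAA was found in 36.1% of the members (31.7 to 40.8%) and 40.1% of the others (38.6 to 41.6%). These shares cover unlike stretches. Over all 4684 others the median 3' end was 219 bases, so the annotated gene end often lay within 300 bases, which it did in no member. The last 40 bases had a GC content of 31.7% in the members and 26.7% in the others. The core of the binding motif of Mmi1, the protein that marks meiotic mRNAs for removal, is TNAAAC. Searched on the mRNA strand, it occurred 1.80 times per 1000 bases in the members and 1.93 times in the others. A match to TNAAAC can share bases with ATTAAA, and letters alone do not show a bound site.

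The members nearest to each reporter were looked up, and members near the reporters were not counted against other genes. In the annotation with the endogenous-site reporter, the nearest was SPBC23G7.14 at 6936 bases, an uncharacterized gene with a 3' end of 1104 bases, and the next was edc3, an mRNA decapping gene, at 39119 bases. In the annotation with the ectopic-site reporter, alg11, a glycosyltransferase gene with a 3' end of 1156 bases, lay at 7063 bases and SPCC613.03 at 26865 bases. No member carried a comment of an edit.

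The second annotation, by the same rule, held 438 long 3' ends among 5120 protein-coding genes. All of the 428 members matched there by identifier had exactly the same 3' distance, and SPAC110.06 was not matched. Of the other genes, 4632 of 4667 (99.3%) had the same distance. Long only in the second annotation were 10 genes, among them the transcription factor gene yox1 (1307 bases against 0) and otu1 (3056 against 0). In ASM294v3 the rule gave 430 genes, of which 429 were the members at equal distance, and eta2 (1150 bases, against 0 in the authors' annotation) was the other.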

How the data were processed

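The authors deposited 2 genome annotations, which list feature starts and ends in bases counted from 1 and hold no value per library. The one used here names PomBase as its source, per the file headers, and carries comments on features cut by an insertion. The header of the second names Geneious 7.1.5 as the program that wrote it. Reads were handled with Trimmomatic and BWA, per the submitters' processing notes. The genome build is not given in the sources used here. With 1 library in each of the 24 groups, no comparison between libraries was made.

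Genes with an mRNA on chromosome I, II or III were taken as protein-coding. The downstream neighbour was the next protein-coding gene beyond the last coding base, on either strand. RNA genes were those with an lncRNA or sncRNA transcript. No test was made, because genes of 1 annotation are not replicates, and shares carry 95% Wilson intervals. Sequences and product names came from RefSeq's ASM294v3 at its own annotation, by identifier. All 429 members matched there at equal distance, as did 4204 of 4684 other genes with a 3' end of at least 40 bases. Coordinates of genes are those of the authors' annotation, and those of sequences are from ASM294v3.

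The members and the gene lists were chosen with earlier results of these data known. Named were the 20 longest members, those at the threshold, list members, the 5 reaching furthest, the 5 with most antisense RNA genes, the 10 holding the longest whole genes, the 5 with the longest introns, the members nearest the reporters, and any with a comment of an edit. Other genes, among them members of pairs, tandem members and those with printed sequences, were chosen after their values were seen. The listed name mcp5 was not found. A listed gene and a neighbour of a member are not reported here. The measures were tested on simulated data: 3' distance, orientation, spacing, overlap and antisense genes were recovered in all 500 of 500. Each simulated gene had a single coding block and a single neighbour without untranslated ends. Introns between coding bases, overlapping coding regions and 3' ends over several genes were therefore not tested. Tools were numpy 2.4.6, matplotlib 3.10.9 and scipy 1.17.1 under Python 3.11.15.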

Additional observations from a re-analysis of the deposited data

How the results depend on the processing

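Of 35 alternative values 23 moved and 12 did not: a share moved where it left the interval of the value reported, a count where it changed by over 1.5 times, and a median where it changed at all. The cause of a move was not tested except where the setting itself selects other genes or bases. With a threshold of 500, 1500 or 2000 bases there were 1069, 220 and 126 long 3' ends, of which 62.8%, 95.9% and 96.8% had a convergent next gene. At the same thresholds 59.3%, 92.7% and 96.8% reached a downstream gene, and 40.2%, 22.3% and 19.0% had an antisense RNA gene over the 3' end. The order against the other genes turned at 500 bases, where the antisense share of the others was 36.2%. It narrowed with an overlap of at least 100 bases, at 23.1% against 24.5%, while over the whole gene it was 64.6% against 76.5%. In the window of 1000 bases an overlap of at least 100 bases gave 19.1% against 46.4%. A downstream gene was reached by at least 100 bases in 83.4% of the members, on the opposite strand in 84.1% and on the same strand in 7.46%. Counting the next gene of any type, 98.8% of members and 88.2% of others had one on the opposite strand. An RNA gene lay wholly inside the 3' end on the same strand in 0.932%. The median 3' end was 1513 bases without introns, 1534 in ASM294v3 and 1533 in the second annotation. A comparison with those other genes alone that had an annotated 3' end was added after seeing the data and changed no order. It could not change the members' own shares, so its values are among those that did not move by construction. No paired analysis was possible because the annotations hold no value per library. Annotated ends were not measured in these strains, and gene counts limit the precision of every share.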
